A study of Mus musculus with 12 samples.

Results

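The genes described here encode the machinery of oxidative phosphorylation, the process by which mitochondria turn the energy of nutrients into ATP. They were chosen by name from a GENCODE annotation of GRCm38: protein-coding genes whose symbol starts with Nduf, Uqcr, Cox4, Cox5, Cox6, Cox7, Cox8, Atp5 or mt-, together with Sdha, Sdhb, Sdhc, Sdhd and Cyc1. The rule found 108 annotation entries, of which 107 were in the count table of 48526 genes (94 encoded in the nucleus and 13 on mitochondrial DNA). No measured value entered the rule. A filter on low counts kept 99 of them, 88 nuclear and 11 mitochondrial, among 15523 genes tested. The libraries are of total RNA from BMDMs, macrophages grown from mouse bone marrow in medium conditioned by L929 cells. The 4 groups of 3 libraries were WT UT (wild-type cells given PBS), KO UT (HSS9 knockout cells given PBS), WT LPS and KO LPS (the same genotypes after 6 hr of lipopolysaccharide, the bacterial cell wall component that activates macrophages). KO cells were homozygous for a deletion in the HSS9 enhancer upstream of Tnf, and the study describes male mice of 7 to 10 weeks. The WT mice are littermates by the labels and purchased C57BL/6 animals by the methods, while the KO line was kept as homozygous breeding pairs, so genotype and breeding history cannot be told apart.

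The protein complexes of this process sit in the inner mitochondrial membrane. Complex I (NADH dehydrogenase) and complex II (succinate dehydrogenase) feed electrons to coenzyme Q, complex III (cytochrome bc1) passes them to cytochrome c, complex IV (cytochrome c oxidase) passes them to oxygen, and complex V (ATP synthase) uses the resulting proton gradient to make ATP. Complexes I, III, IV and V each hold some subunits encoded on mitochondrial DNA, while complex II is wholly nuclear. In macrophages, LPS is known for shifting metabolism from respiration towards glycolysis, and succinate dehydrogenase is a known point of that shift.

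Library totals ranged from 26154533 to 36423921 counts. Values are CPM, counts scaled to a common library size with TMM factors, and fold changes are log2 values of edgeR's quasi-likelihood fit of all 12 libraries. A gene "passed" when its Benjamini-Hochberg adjusted p over all genes tested was below 0.05, and was "called" when its absolute log2 fold change was also above 1. Tnf, the readout of the deletion, was at 826, 905 and 938 CPM in the WT LPS libraries and at 422, 449.5 and 425 CPM in the KO LPS libraries, so the KO libraries lay lower. All 8 macrophage markers passed the filter, with a summed level of 27900 to 34400 CPM, while the 4 T cell markers and the 4 markers of brown fat or muscle summed to at most 0.411 CPM. The 4 B cell markers summed to 0.75 to 1.25 CPM in WT UT, 1.1 to 1.79 CPM in KO UT and at most 0.283 CPM after LPS. The 7 neutrophil markers summed to 18.6 to 19.9 CPM in WT UT, 40.7 to 46.2 CPM in KO UT, 50.4 to 79.4 CPM in WT LPS and 67.2 to 76.7 CPM in KO LPS (1 of them, at 0 counts everywhere, included). The 7 fibroblast markers summed to 4.82 to 5.32, 5.2 to 6.82, 21.9 to 24.1 and 26.9 to 28.9 CPM in the same order. Single genes made up much of the rises with LPS. In WT the mean of Pdgfrb went from 0.966 to 19.8 CPM, and that of S100a8 from 7.32 to 52.7 CPM. Of 6 tested fibroblast markers, 1 passed as higher and 2 as lower for LPS in WT, and 3 and 0 in KO. Of 5 tested neutrophil markers, the counts were 2 and 2 in WT, and 2 and 3 in KO. The part of other cell types in the results was not tested. The WT LPS libraries stood apart from one another: their counts differed by a chi-square of 11.7 to 43.7 per degree of freedom, against 3.77 to 13.6 in the other groups. They also differed in the share of counts on genes of short structured RNAs, at 4.04%, 5.36% and 6.88%. This share was 3 to 3.25% in WT UT, 6.62 to 7.83% in KO UT and 3.23 to 3.39% in KO LPS.

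Regulatory sequence was examined first, because nuclear genes of the respiratory chain are known targets of the factors NRF1 and YY1 and of ETS factors such as GABP. Promoters from 250 bases before to 50 bases after a start site were taken from RefSeq (GRCm38.p6) and found for 76 of the 94 nuclear members. The letters searched, on both strands, were GCGCANGCG for NRF1, CCGGAAG for ETS factors, AAGATGGCG for YY1, CACGTG for an E-box and TCAAGGTCA for the estrogen-related receptors. The NRF1 letters were in 28.9% of the member promoters and 10% of 16717 protein-coding genes with a promoter. The corresponding shares were 23.7% and 13.3% for ETS, 10.5% and 2.24% for YY1, 7.89% and 9.21% for the E-box, and 2.63% and 0.383% for the receptors. At least 1 of the NRF1, ETS and YY1 letters was in 51.3% of member promoters and 22.5% of all. By complex, the promoters with such letters numbered 20 of 39 in complex I, 3 of 3 in complex II, 3 of 5 in complex III, 3 of 14 in complex IV and 10 of 15 in complex V. Such matches are a description of letters and not of bound sites. The promoters below belong to members whose values are followed in the text, and capitals mark the NRF1, ETS or YY1 letters. In the Atp5k promoter the NRF1 letters can be read on both strands within the same 10 bases (GCGCATGCGC). The Cox5b promoter, which holds none of these letters, is shown for contrast.
Atp5k, chr5:108434350-108434649, minus strand: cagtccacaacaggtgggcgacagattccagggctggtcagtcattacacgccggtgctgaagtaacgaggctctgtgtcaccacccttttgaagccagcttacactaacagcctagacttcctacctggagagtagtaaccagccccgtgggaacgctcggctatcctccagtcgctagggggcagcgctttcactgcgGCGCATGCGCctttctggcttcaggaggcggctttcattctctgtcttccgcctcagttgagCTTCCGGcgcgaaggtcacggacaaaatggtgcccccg
Ndufaf8, chr11:120098684-120098983, plus strand: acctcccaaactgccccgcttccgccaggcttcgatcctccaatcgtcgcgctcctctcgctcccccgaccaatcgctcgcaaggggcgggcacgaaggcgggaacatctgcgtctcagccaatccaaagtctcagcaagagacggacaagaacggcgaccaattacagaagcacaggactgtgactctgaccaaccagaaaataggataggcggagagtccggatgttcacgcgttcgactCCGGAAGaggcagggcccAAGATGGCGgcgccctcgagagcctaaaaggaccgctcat
Ndufs4, chr13:114388045-114388344, minus strand: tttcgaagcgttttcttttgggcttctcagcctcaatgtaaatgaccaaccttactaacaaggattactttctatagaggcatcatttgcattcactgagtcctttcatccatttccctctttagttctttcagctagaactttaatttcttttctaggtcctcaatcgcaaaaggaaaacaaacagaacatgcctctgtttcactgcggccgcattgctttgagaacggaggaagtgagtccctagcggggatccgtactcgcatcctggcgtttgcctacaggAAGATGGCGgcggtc
Sdha, chr13:74350191-74350490, minus strand: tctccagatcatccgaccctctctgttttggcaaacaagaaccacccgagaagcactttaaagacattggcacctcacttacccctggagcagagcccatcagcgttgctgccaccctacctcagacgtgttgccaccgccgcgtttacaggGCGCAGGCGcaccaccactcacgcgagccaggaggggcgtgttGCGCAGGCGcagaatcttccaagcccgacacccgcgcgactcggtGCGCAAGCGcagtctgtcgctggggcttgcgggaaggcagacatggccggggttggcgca
Cox5b, chr1:36691237-36691536, plus strand: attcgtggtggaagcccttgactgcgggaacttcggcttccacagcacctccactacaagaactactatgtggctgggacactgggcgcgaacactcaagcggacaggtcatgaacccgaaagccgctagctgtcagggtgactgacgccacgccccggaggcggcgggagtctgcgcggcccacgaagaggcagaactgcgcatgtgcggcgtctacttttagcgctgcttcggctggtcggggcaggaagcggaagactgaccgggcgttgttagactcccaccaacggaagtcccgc

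Without LPS, nuclear members were higher in KO than in WT cells across all 5 complexes. Of 88 nuclear members tested, 76 passed as higher and 0 as lower, where 14.1% of all genes tested passed as higher and 9.69% as lower. Their median log2 fold change was 0.58, against 0.00 for all genes tested. By complex, 36 of 44 members of complex I passed as higher (median 0.57), 3 of 4 of complex II (0.21), 8 of 9 of complex III (0.54), 13 of 14 of complex IV (0.69) and 16 of 17 of complex V (0.55). No nuclear member was called, and among all genes tested the called share was 1.82%. The changes were therefore common but each smaller than a doubling, from -0.01 for Sdha to 0.96 for Cox7a1. The values describe RNA in whole cultures, in which fewer cells of a type and less RNA per cell cannot be told apart.

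**Figure D1:**
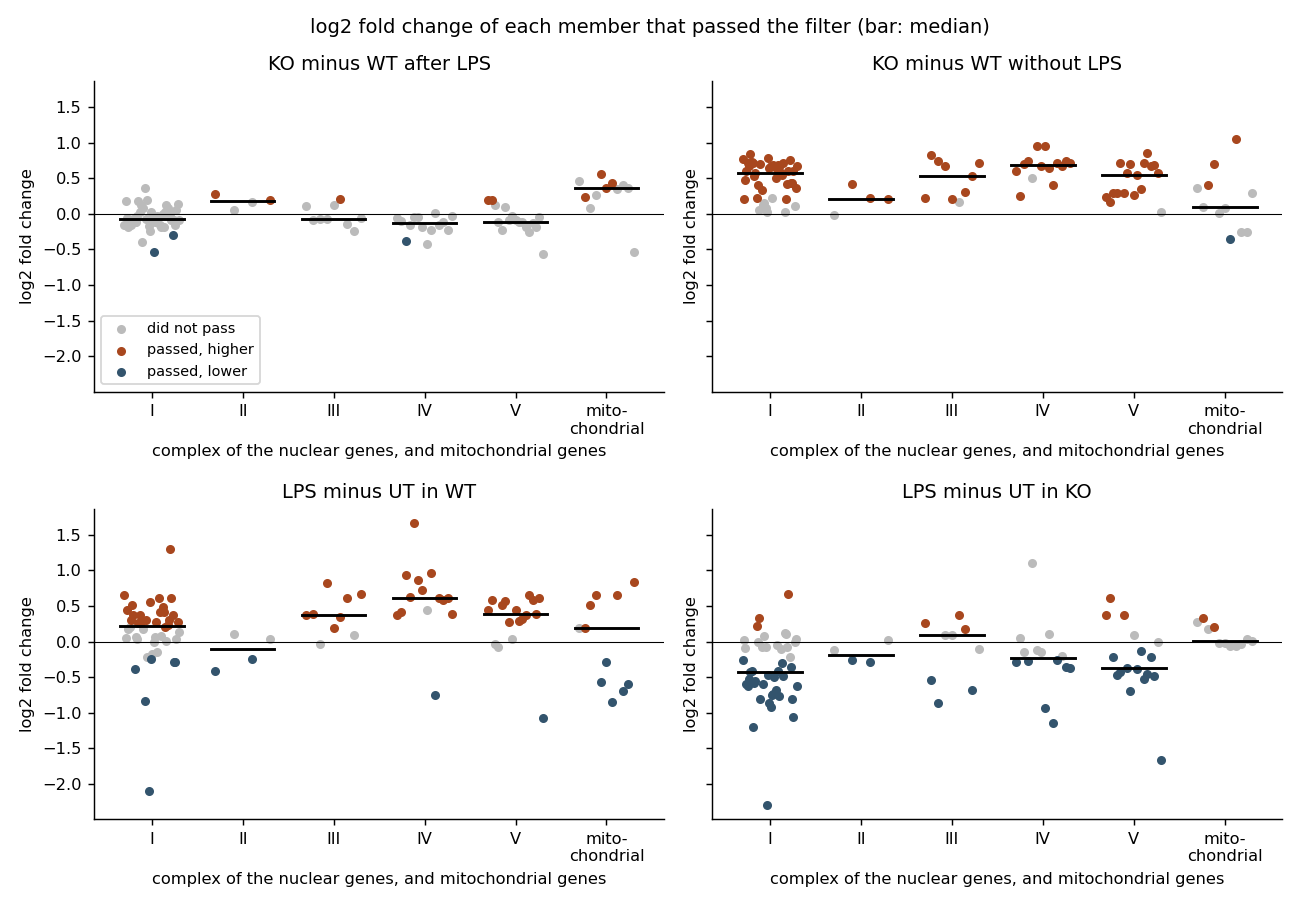
The vertical axis is the log2 fold change of each of the 99 members that passed the filter, the horizontal axis is the complex of its nuclear members with the mitochondrial genes last, and each panel is 1 pairwise comparison (edgeR, 3 libraries a group). Colours mark members that passed the test and bars are medians: nuclear members lie mostly above 0 in the comparison without LPS (median 0.58) and mostly below 0 for LPS in KO (median -0.28).

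The members with the largest differences in each complex show the size of this shift. Cox6b1, a subunit of complex IV on the side of cytochrome c, was at 76.9, 76.9 and 78.6 CPM in WT UT and at 157, 152 and 141 CPM in KO UT (log2 fold change 0.95, SE 0.0873, edgeR adjusted p 1.06e-07). Ndufa3, an accessory subunit of complex I, was at 48.1, 47.4 and 49.7 CPM in WT UT and 87.4, 91.6 and 80.9 CPM in KO UT (0.84, SE 0.0911, edgeR adjusted p 1.01e-06). Atp5k, the e subunit in the membrane part of ATP synthase, was at 63.6, 61.8 and 57.8 CPM in WT UT and 113, 115 and 103 CPM in KO UT (0.85, SE 0.102, edgeR adjusted p 3.48e-06). In each of these genes all KO libraries lay above all WT libraries. Uqcr10, a small accessory subunit of complex III, was at 64.4, 56 and 57 CPM in WT UT and 107, 113 and 94.8 CPM in KO UT. Uqcr11 (0.75), Atp5e (0.72), Ndufaf8 (0.79) and Cox7a1 (0.96) also passed, the last at only 2.2 ± 0.0824 CPM (SD, n = 3) in WT UT and 4.29 ± 0.791 CPM in KO UT.

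The difference was uneven between roles. Among accessory subunits of complex I, 28 of 29 passed as higher with a median of 0.64, whereas 5 of the 7 core subunits did so with a median of 0.36. The 8 complex I assembly factors, which build the complex without being part of it, had a median of 0.14, and 3 of them passed as higher. All 11 accessory subunits of complex IV, all 4 membrane subunits of ATP synthase and all 5 subunits of its F1 part passed as higher, with medians of 0.70, 0.70 and 0.29. Assembly and other factors together had 4 of 10 members higher, and subunits 72 of 78. Gene length also varies among members, and these values by role were not matched for it. Whether the roles differ was not tested.

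Succinate dehydrogenase had the smallest median of the 5 complexes in this comparison. Sdha, the flavoprotein that holds the catalytic site, was at 139, 142 and 142 CPM in WT UT and 132, 141 and 147 CPM in KO UT (log2 fold change -0.01, 95% interval -0.17 to 0.14). The groups overlapped. Sdhb, the iron-sulfur subunit, was at 119, 107 and 119.7 CPM in WT UT and at 157, 155 and 152 CPM in KO UT (0.42, SE 0.067, edgeR adjusted p 6.61e-05). The membrane anchors Sdhc (0.22, SE 0.061, edgeR adjusted p 0.00985) and Sdhd (0.21, SE 0.0625, edgeR adjusted p 0.0191) passed by smaller amounts. With length and GC offsets the value of Sdhd changed sign, as given in the last section. Cyc1, the cytochrome c1 of complex III, was at 31.1, 31.3 and 31.2 CPM in WT UT and 36.1, 36.8 and 36 CPM in KO UT (0.22, SE 0.0604, edgeR adjusted p 0.0105), with no overlap.

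Gene length and library content moved with this result. Nuclear members are short genes, with a median summed exon length of 1737 bases against 4464 bases for the nuclear protein-coding genes tested. In the shortest decile of those genes (up to 1747 bases), 41 of 44 members passed as higher in KO UT (93.2%, median 0.67), and so did 48.2% of 1178 other genes (median 0.37). In the second decile, 17 of 19 members passed as higher (89.5%, median 0.33) and 28.4% of 1203 others (median 0.15). Between there and the median length the shares were 72.2% of 18 members and 16% of 3648 others, and above the median length 71.4% of 7 members and 5.44% of 6103 others. With the length of the principal transcript in place of summed exons, 94.8% of 58 members and 58.2% of 1164 others of the shortest decile passed as higher. Members thus had the larger share in each class, and in both sets the share was largest among the shortest genes. With per-library offsets for length and GC content, 65 nuclear members passed as higher and 0 as lower, and their median was 0.37. The KO UT libraries, with 6.62 to 7.83% of counts on short structured RNAs, had a nuclear mean log2(CPM + 0.5) of 6.00 to 6.09, WT LPS replicate 3, with 6.88%, had 5.98, and the WT UT libraries had 5.53 to 5.59. The KO LPS libraries, with 3.23 to 3.39%, lay above WT UT at 5.72 to 5.78, and also above WT LPS replicate 1 (4.04%, 5.61). The part of RNA or library quality in the difference was not tested.

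**Figure D2:**
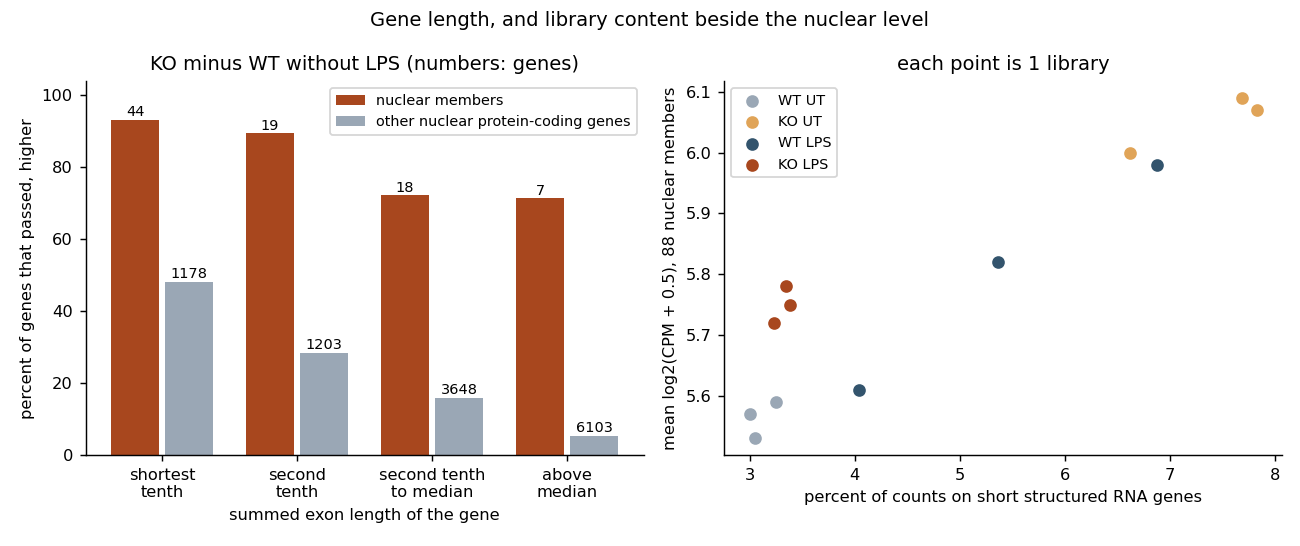
Left, the percent of genes that passed as higher in KO minus WT without LPS, for nuclear members and other nuclear protein-coding genes in 4 classes of summed exon length, with gene numbers on the bars. Right, the mean log2(CPM + 0.5) of the 88 nuclear members of each of the 12 libraries against the percent of its counts on short structured RNA genes: the WT LPS libraries spread from 4.04% and 5.61 to 6.88% and 5.98, the last beside the KO UT libraries.

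**Figure D3:**
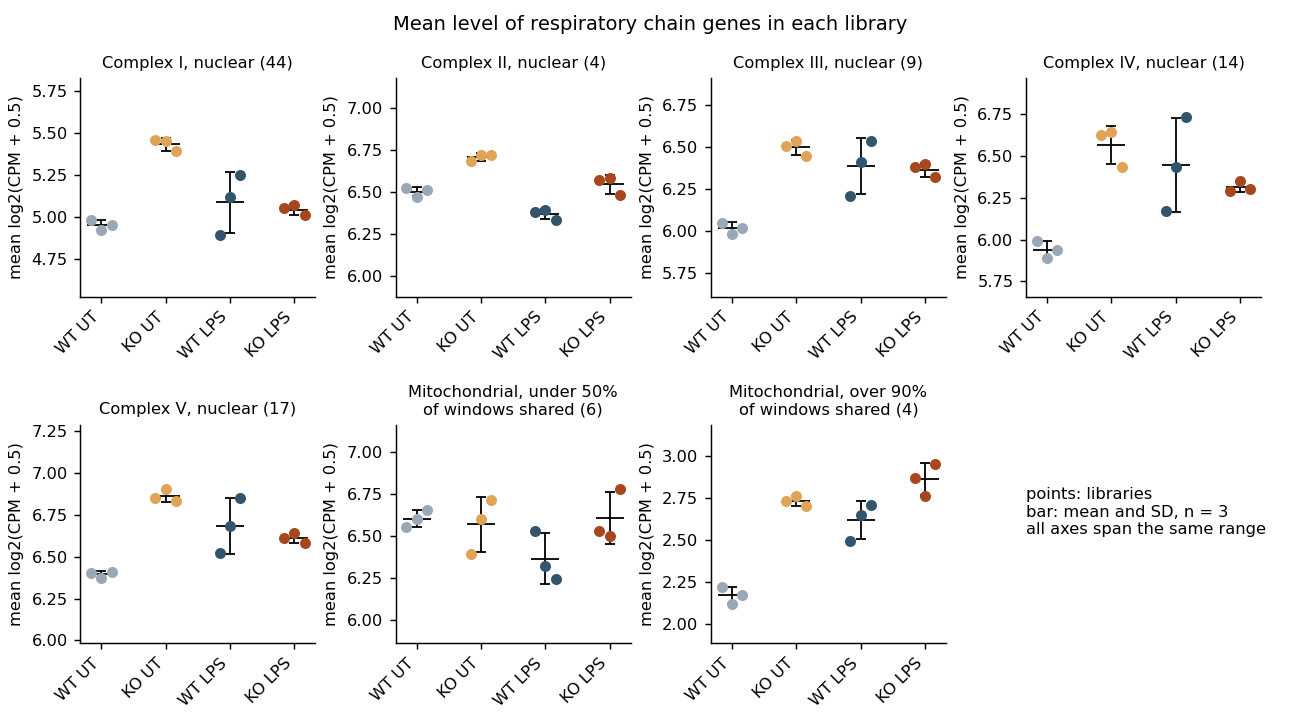
Each panel gives the mean log2(CPM + 0.5) of a set of genes on the vertical axis (number of genes in the title) for the 4 groups, with points for libraries and bars for the mean and SD (n = 3). KO UT lies above WT UT in all 5 nuclear panels, and the WT LPS libraries of complex IV range from 6.17 to 6.73. The mitochondrial genes are split into sets by how much of their sequence is shared with a nuclear copy. Gene length also varies among them, and whether these sets differ was not tested.

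LPS moved nuclear members in both directions, and the direction was not the same in both genotypes. In WT cells 54 of 88 passed as higher and 10 as lower (38.0% and 35.3% of all genes tested), with a median of 0.31 against 0.05 for all genes. The nuclear mean log2(CPM + 0.5) was 5.61, 5.82 and 5.98 in the WT LPS libraries and 5.53 to 5.59 in WT UT. WT LPS replicate 1 thus lay close to WT UT. In the shortest decile of summed exon length, 65.9% of 44 members and 40.7% of 1178 other genes passed as higher in WT. In KO cells 9 passed as higher and 51 as lower (35.1% and 37.7% of all genes), with a median of -0.28 against -0.06. Counted gene by gene, 24 nuclear members passed as higher in WT and as lower in KO, 9 as higher in both, 9 as lower in both, and 0 as lower in WT and higher in KO. The same cross count was not made over all genes tested, so these numbers stand without a background. Complex IV had 12 of 14 higher in WT (median 0.61) and 0 higher and 7 lower in KO (median -0.23). Complex I had 22 of 44 higher and 6 lower in WT (median 0.23) and 3 higher and 27 lower in KO (median -0.42). Complex V had 13 of 17 higher and 1 lower in WT (median 0.39) and 3 higher and 12 lower in KO (median -0.37). Complex III had 7 of 9 higher and 0 lower in WT (median 0.37) and 3 higher and 3 lower in KO (median 0.09). Complex II had 0 higher and 2 of 4 lower in each genotype (medians -0.10 and -0.19).

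These directions are relative to the TMM scale. Scaling by library totals alone shifted the median of all genes to -0.62 for LPS in WT and -0.56 for LPS in KO. On that scale 62 of 88 nuclear members passed as lower and 4 as higher in WT, and 83 as lower and 0 as higher in KO. Relative to the median of all genes, the nuclear median was 0.26 in WT and -0.22 in KO on that scale, and 0.26 and -0.22 with TMM. With offsets for length and GC content, 31 nuclear members were higher and 22 lower in WT (median 0.06). The share of all counts that fell on nuclear members was 0.789 to 0.821% in WT UT, 1.01 to 1.06% in KO UT, 0.569 to 0.721% in WT LPS and 0.618 to 0.643% in KO LPS.

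The difference between the 2 LPS responses was tested as an interaction. It passed as negative (the response of KO cells below that of WT cells) for 64 of 88 nuclear members and as positive for 0, where 9.50% and 7.32% of all genes passed, and the median was -0.66 against -0.01 for all genes. Passed members numbered 32 of 44 in complex I, 1 of 4 in complex II, 6 of 9 in complex III, 13 of 14 in complex IV and 12 of 17 in complex V. This contrast holds the difference without LPS described above, since the KO UT libraries enter it with opposite sign. Of the nuclear members in the shortest decile 90.9% passed as negative, and 36.6% of other genes of that length. With length and GC offsets 54 nuclear members passed as negative and 1 as positive, with a median of -0.39. Leaving out WT LPS replicate 1 or 3, the libraries at either end of the WT LPS spread, gave 66 and 61 nuclear members with medians of -0.79 and -0.54.

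**Figure D4:**
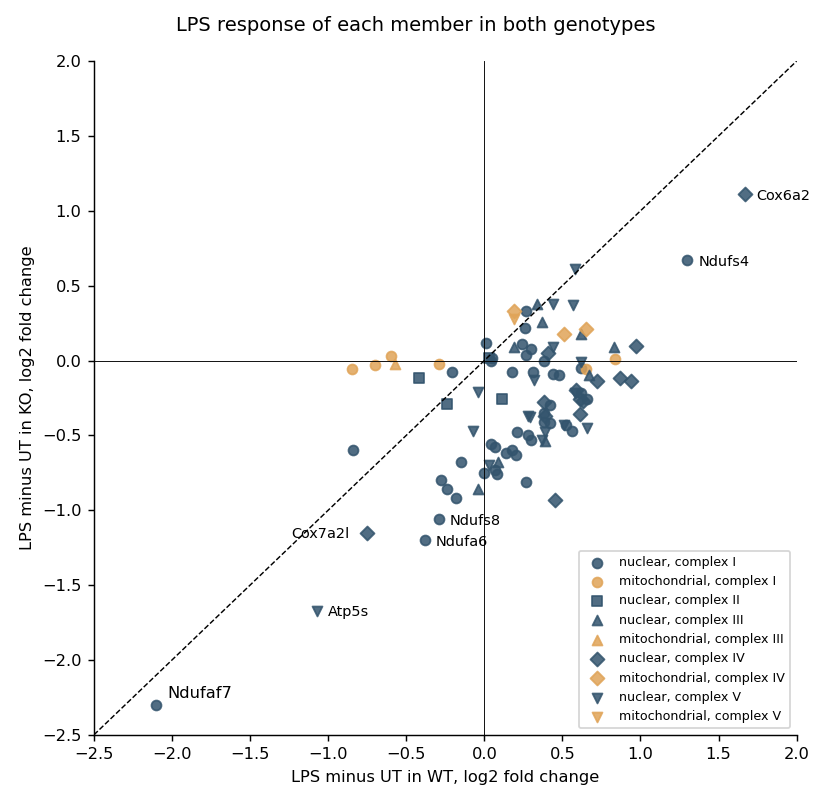
Each point is 1 of the 99 members that passed the filter, with its log2 fold change for LPS minus UT in WT on the horizontal axis and in KO on the vertical axis. The dashed line marks equal responses: most nuclear members lie below it, with Ndufaf7 (-2.10 and -2.30) near it and Cox7a2 (0.97 and 0.10) below it.

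Few members were called for LPS, although 37.8% of all genes tested were called in WT and 37.0% in KO. In WT there were 4 nuclear members called, and in KO 5. Ndufaf7, a methyltransferase needed for complex I assembly, fell in both genotypes, from 11.1, 10.9 and 10 CPM in WT UT to 1.83, 3.05 and 2.69 CPM in WT LPS (a log2 change of -2.10 with SE 0.146, edgeR adjusted p 2.12e-11). In KO it went from 10.5, 11.5 and 10.7 CPM to 2.03, 2.44 and 2.16 CPM (-2.30, SE 0.146, edgeR adjusted p 4.57e-12), and the responses did not pass as different (-0.20, 95% interval -0.62 to 0.22). Ndufs4, an accessory subunit of complex I, rose from 33.8, 31.1 and 32 CPM in WT UT to 68, 79.5 and 91.3 CPM in WT LPS (95% interval of the log2 fold change 1.15 to 1.45, SE 0.0787, edgeR adjusted p 1.97e-12). In KO it rose from 46.8, 51 and 49.1 CPM to 77.7, 79.4 and 76.3 CPM (0.67, SE 0.0772, edgeR adjusted p 9.52e-08). The LPS libraries of both genotypes reached a like level, and the lower fold in KO stands beside a higher start. Atp5s, a factor related to ATP synthase, fell from 2.62, 3.68 and 3.66 CPM to 1.53, 1.53 and 1.7 CPM in WT (-1.07) and from 2.52, 3.67 and 3.95 CPM to 0.882, 1.31 and 0.988 CPM in KO (-1.67).

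Other called members fell past the fold threshold in KO cells and less far in WT cells. Cox7a2l, a factor that joins complexes III and IV into supercomplexes, fell from 351, 355 and 370.0 CPM to 169, 169 and 147 CPM in KO (-1.15, SE 0.0647) and from 272, 266 and 270.3 CPM to 146, 166 and 169 CPM in WT (-0.75, SE 0.0644). Ndufa6, an accessory subunit of complex I, fell by 1.20 on the log2 scale in KO (139.6, 136 and 120.2 CPM to 58.3, 56.4 and 57.8 CPM) and by 0.38 in WT (85.3, 75.7 and 80.9 CPM to 48.6, 62.5 and 75.4 CPM). Ndufs8, a core subunit of complex I that carries iron-sulfur clusters, fell by 1.06 in KO and 0.29 in WT. In all 3 genes the LPS libraries lay below the UT libraries in both genotypes, and each interaction passed (-0.40, -0.82 and -0.77). Cox6a2, the muscle and heart form of a complex IV subunit, was called as higher in WT (1.67, SE 0.737, edgeR adjusted p 0.0471) on very low levels, at most 0.613 CPM and 13 counts in any library. Without a replicate block it passed and with one it did not, and on the opposite strand it overlaps Itgad.

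The interaction was called for 5 members, where 2.16% of all genes were called. Cox5b, a zinc-binding subunit of complex IV, was at 109.6, 92.4 and 98.5 CPM in WT UT, 174, 173 and 141 CPM in KO UT, 144, 196 and 237 CPM in WT LPS and 139, 161 and 142 CPM in KO LPS (-1.08, SE 0.171, edgeR adjusted p 1.94e-04). Atp5k, given above without LPS, was at 74.7, 96.4 and 119 CPM in WT LPS and 83, 81.7 and 77.8 CPM in KO LPS (-1.11, SE 0.146, edgeR adjusted p 3.74e-05). In both genes the WT LPS libraries were spread over more than the difference between the LPS groups. The others were the complex I assembly factors Ndufaf2 (-1.08, SE 0.214) and Ndufaf8 (-1.03, SE 0.203) and Cox7a1 (-1.39, SE 0.3), the muscle form of the Cox7a subunit. Among the large movers that were not called, Uqcrb of complex III rose by 0.83 in WT and was at 0.09 in KO, and Cox7a2 rose by 0.97 in WT and was at 0.10 in KO.

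After LPS, nuclear members differed little between the genotypes. Of 88, 5 passed as higher and 3 as lower in KO, where 7.78% and 6.54% of all genes passed, and the median was -0.07 against -0.01. No member was called, and 1.25% of all genes were. The 5 were Sdha (0.28) and Sdhd (0.20) of complex II, Uqcrc2 (0.21) of complex III and Atp5a1 (0.19) and Atp5b (0.20), the alpha and beta subunits that form the catalytic head of ATP synthase. Sdha was at 123, 106 and 87.5 CPM in WT LPS and 128, 127 and 131 CPM in KO LPS (SE 0.0821, edgeR adjusted p 0.0264). The 3 were Ndufb2 (-0.53, SE 0.158, edgeR adjusted p 0.0301), Ndufs6 (-0.30, edgeR adjusted p 0.0473) and Cox5b (-0.38, edgeR adjusted p 0.0381). With a replicate block 3 passed as higher and 0 as lower, and with length and GC offsets 9 and 2 (median 0.01). These counts turned on single LPS libraries. Without KO LPS replicate 1, 2 passed as higher and 0 as lower, without KO LPS replicate 2, 0 and 3, and without KO LPS replicate 3, 5 and 0. Without WT LPS replicate 1, 5 passed as higher and 37 as lower (median -0.19), without WT LPS replicate 2, 5 and 1, and without WT LPS replicate 3, 1 and 0 (median 0.06).

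The 13 protein genes of mitochondrial DNA did not move as 1 block. These genes are transcribed together from both strands of a circular genome and are cut apart at transfer RNAs. mt-Co1, the catalytic subunit of complex IV, held 88.1 to 92.4% of their counts, at 4292 to 6350 CPM. Per length it was at 7038 TPM (mean of 12 libraries, TPM computed from counts and summed exon length), against 377 TPM for mt-Nd1, 356 for mt-Cytb and 59.7 for mt-Co3. mt-Atp8 and mt-Nd4l had at most 4 and 2 counts in any library. The share of all counts on the 13 genes was 0.641 to 0.653% in WT UT, 0.556 to 0.664% in KO UT, 0.413 to 0.493% in WT LPS and 0.503 to 0.573% in KO LPS.

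Stretches of mitochondrial DNA have been copied into nuclear chromosomes, and mouse chromosome 1 holds a long copy annotated as several pseudogenes. Every window of the read length was compared with the other annotated transcripts. The share of windows found unchanged in another gene was 99.9% for mt-Co3, 99.5% for mt-Co2 and mt-Atp6, 98.5% for mt-Nd4l and 97.6% for mt-Nd3. It was 60.7% for mt-Nd4, 30.7% for mt-Co1, 3.09% for mt-Nd2 and 0 for mt-Cytb, mt-Nd1, mt-Nd5, mt-Nd6 and mt-Atp8. Sequence outside annotated genes was not compared. On mitochondrial DNA mt-Atp8 begins between mt-Co2 and mt-Atp6. Their chromosome 1 copies start at 24614885 and end at 24614651, and neither covers the stretch between. A share of 0 for mt-Atp8 therefore does not show that its sequence is unique. The copies were counted too: Gm28437, the copy of mt-Co3 (chromosome 1, 24613189 to 24613971), had 557 to 1262 counts a library. Apart from reads over the few differing bases, reads of mt-Co3, mt-Co2, mt-Atp6, mt-Nd4l and mt-Nd3 and of their copies cannot be told apart by sequence. The treatment of such reads in the counting is not given in the sources used here, so the levels of these genes are uncertain. The first bases of mt-Nd3 and of its copy Gm28438 (345 bases compared over the whole gene, 1 difference, 99.7% identity) show how little separates them, with the differing base in capitals.
mt-Nd3, chrM:9459-9806, plus strand: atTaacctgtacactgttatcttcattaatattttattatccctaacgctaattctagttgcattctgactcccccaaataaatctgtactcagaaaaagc
Gm28438, chr1:24612775-24613119, minus strand: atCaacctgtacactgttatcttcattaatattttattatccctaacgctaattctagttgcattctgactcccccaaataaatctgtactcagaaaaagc

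For LPS in WT, 38.0% of all genes tested passed as higher and 35.3% as lower, and in KO 35.1% and 37.7%. Of the 7 tested mitochondrial genes with under 90% of their windows shared, LPS lowered 5 and raised 2 in WT cells, and raised 1 and lowered 0 in KO cells. These directions depend on the fit: with length and GC offsets, of all 11 tested mitochondrial genes 0 passed as higher and 8 as lower in WT (median -0.59), and 0 as higher and 9 as lower in KO (median -0.48). mt-Cytb, the mitochondrial subunit of complex III, was at 198 ± 3.69 CPM (SD, n = 3) in WT UT, 186, 207 and 205 CPM in KO UT, 152, 126 and 121 CPM in WT LPS and 166, 181 and 242 CPM in KO LPS. All WT LPS libraries lay below all others. The change was -0.57 in WT (SE 0.102, edgeR adjusted p 3.72e-05) and -0.02 in KO (SE 0.101), and the interaction passed (0.55, SE 0.143, edgeR adjusted p 0.0113). The complex I genes mt-Nd1 (-0.29), mt-Nd2 (-0.85), mt-Nd4 (-0.70) and mt-Nd5 (-0.60) also fell in WT, and in KO lay between -0.06 and 0.03 without passing. mt-Nd2 was at 19.1, 18.9 and 20.8 CPM in WT UT and 13.1, 9.74 and 9.57 CPM in WT LPS, against 14.1, 15.7 and 16.5 CPM in KO UT and 13.2, 12.5 and 18.6 CPM in KO LPS. The KO UT libraries already lay below WT UT (-0.35, edgeR adjusted p 0.0436), a difference that did not pass with a replicate block, or when any 1 WT UT library, KO UT replicate 1, KO UT replicate 2 or WT LPS replicate 2 was left out. mt-Co1 rose with LPS in both genotypes, by 0.19 in WT and 0.33 in KO, but fell by 0.45 and 0.14 with length and GC offsets. mt-Nd6, the gene on the other strand, rose by 0.84 in WT at 1.47 to 4 CPM and overlaps mt-Nd5.

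The 4 tested genes with almost wholly shared sequence are given next. Whether they differ from the other tested mitochondrial genes was not tested. For LPS in KO, 1 gene passed as higher and 0 as lower in each set. mt-Nd3, a small membrane subunit of complex I, was at 1.33, 1.54 and 1.72 CPM in WT UT and 2.69, 3.64 and 3.31 CPM in KO UT, the one member called without LPS (1.06, SE 0.194, edgeR adjusted p 3.02e-04). It had 57 to 131 counts in the UT libraries, where its copy Gm28438 had 109 to 183, so the call depends on how reads were divided. mt-Co3 was at 15.7, 13.4 and 15.2 CPM in WT UT and 25.9, 23.6 and 22.4 CPM in KO UT (0.70, SE 0.0866, edgeR adjusted p 4.93e-06). mt-Co2 (0.41) passed as higher too, and mt-Atp6 (0.37, edgeR adjusted p 0.254) did not pass. With LPS in WT, mt-Nd3 (0.65), mt-Co3 (0.65) and mt-Co2 (0.51) rose, and with length and GC offsets these 3 values were -0.15, -0.14 and -0.30. Across the 11 tested mitochondrial genes, 3 passed as higher and 1 as lower without LPS (median 0.10), 5 and 5 for LPS in WT (median 0.19), 2 and 0 for LPS in KO (median 0.01), and 4 and 0 in KO minus WT after LPS (median 0.36). The shares of all genes that passed as higher and lower were 14.1% and 9.69%, 38.0% and 35.3%, 35.1% and 37.7%, and 7.78% and 6.54% in the same order, so the first 2 pairs of counts lay near the background. The 4 genes higher after LPS were mt-Co1 (0.24), mt-Cytb (0.56), mt-Nd1 (0.36) and mt-Nd2 (0.44), and without KO LPS replicate 3, the library with the highest mitochondrial mean, 1 gene passed (median 0.20). With length and GC offsets 8 passed as higher and 0 as lower after LPS (median 0.51). In the interaction 4 passed as positive (mt-Cytb, mt-Nd2, mt-Nd4 and mt-Nd5) and mt-Co3 as negative, and with a replicate block 2 passed as positive and 1 as negative.

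**Figure D5:**
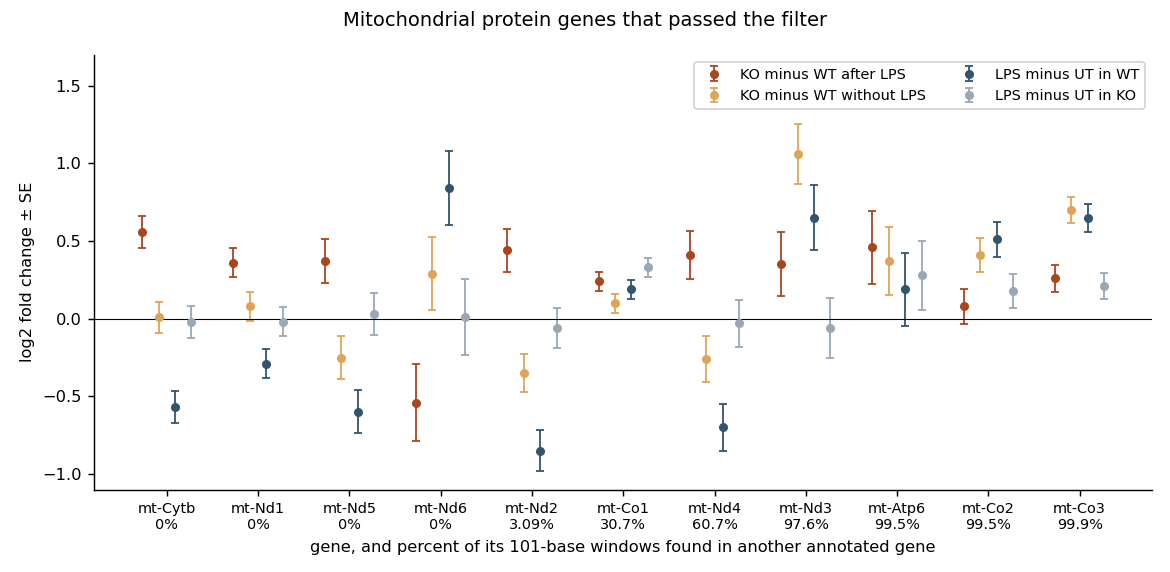
The vertical axis is the log2 fold change with its SE for the 11 mitochondrial protein genes that passed the filter, in 4 comparisons given by colour. Genes are ordered along the horizontal axis by the percent of their read-length windows found in another annotated gene. With LPS in WT, mt-Cytb, mt-Nd1, mt-Nd5, mt-Nd2 and mt-Nd4 lie below 0. The genes above 0 are mt-Nd6 and mt-Co1 as well as mt-Nd3, mt-Atp6, mt-Co2 and mt-Co3.

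The balance of both genomes was read within each library, as the mean log2(CPM + 0.5) of the 88 nuclear members minus that of the 11 mitochondrial genes. It was 0.67, 0.64 and 0.63 in WT UT, 1.10, 0.98 and 0.84 in KO UT, 0.64, 0.96 and 1.16 in WT LPS and 0.66, 0.75 and 0.41 in KO LPS. KO UT libraries lay above WT UT libraries, by 0.33 on average, and the LPS groups overlapped. The spread within a group was widest among the WT LPS libraries. With the 6 mitochondrial genes that share under 50% of their windows, the difference between KO UT and WT UT was 0.52, and with medians in place of means it was 0.09. No test was run on this score.

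Between genes, levels were compared per length only. In complex III the most abundant nuclear members were Uqcrb (368 TPM), Uqcrh (300.3 TPM) and Uqcr11 (289 TPM), and the core subunits Uqcrfs1 (108 TPM) and Cyc1 (37.5 TPM) were lower. In complex II, Sdhd (135 TPM) and Sdhb (126 TPM) stood above Sdha (70.1 TPM) and Sdhc (38.7 TPM), and with the length of the principal transcript Sdhb (267 TPM) came before Sdhd (144 TPM). Among nuclear members of complex IV the leading ones were Cox8a (523 TPM), Cox4i1 (477 TPM) and Cox6b1 (371 TPM), or Cox4i1 (1048 TPM), Cox7c (732 TPM) and Cox8a (642 TPM) with principal transcripts, so the order within a complex depends on the transcript chosen.

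Where a subunit has alternative forms, the general form carried nearly all of the RNA. Cox4i1 was at 477 TPM while Cox4i2, the form of lung and low oxygen, was at 0.0253 TPM (at most 3 counts in a library). Cox6a1 was at 341 TPM and Cox6a2 at 0.715 TPM, and Cox6b1 was at 371 TPM while the testis form Cox6b2 was at 0.221 TPM (at most 16 counts). Of the Cox8 forms, Cox8a was at 523 TPM, Cox8b had 0 counts and Cox8c was at 0.0365 TPM (at most 3 counts). Cox7a2 was at 348 TPM and Cox7a1 at 11.6 TPM. Ndufa4 was at 232 TPM and Ndufa4l2 at 0.0109 TPM (at most 2 counts), and Cox7b2 had 0. The 3 genes for the identical c subunit of ATP synthase were each present, with Atp5g2 (90.8 TPM), Atp5g3 (70.7 TPM) and Atp5g1 (32.5 TPM), of which 34.7% of the windows of Atp5g2 and 5.9% of those of Atp5g1 are shared with pseudogenes. They responded unequally: LPS in KO lowered Atp5g2 (-0.70) and Atp5g1 (-0.37) while Atp5g3 was at 0.09, and LPS in WT raised Atp5g3 (0.44) and Atp5g1 (0.28) while Atp5g2 was at 0.03. Whether these 3 responses differ from one another was not tested. The 8 members below the filter were Cox4i2, Cox6b2, Cox7b2, Cox8b, Cox8c, Ndufa4l2, mt-Atp8 and mt-Nd4l.

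Related genes outside the rule gave a point of comparison. Of 77 tested mitochondrial ribosomal proteins, which translate the 13 mitochondrial genes, 57 were higher and 1 lower in KO UT (median 0.39), 40 passed as negative in the interaction (median -0.36), and 1 was higher and 1 lower after LPS. Among all genes tested, 9.50% passed as negative in the interaction, and 7.78% as higher and 6.54% as lower after LPS. Of 45 tested assembly factors outside the rule, 17 were higher and 1 lower in KO UT (median 0.22), led by Sdhaf1 (0.86), Pet100 (0.77) and Sdhaf4 (0.69). Of 31 genes for mitochondrial DNA transcription and RNA handling 4 were higher and 1 lower (median -0.04), and of 14 tricarboxylic acid cycle genes 3 were higher and 2 lower (median 0.10). Of 20 genes of electron carriers 2 were higher and 1 lower (median 0.09). Against 14.1% higher and 9.69% lower among all genes tested, the counts of these 3 lists were near the background. Of 14 tested regulators of respiratory genes, 1 was higher, Pparg (0.27), and 1 lower, Ppard (-0.51). Members with and without NRF1, ETS or YY1 letters in the promoter had like medians in KO UT, 0.58 for 39 with and 0.59 for 34 without.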

How the data were processed

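Paired-end reads of stranded total RNA with globin depletion were, per the labels and methods, aligned to GRCm38 with HISAT2 2.1.0 and counted per gene with featureCounts 2.0.0. The deposited table holds raw counts, which the authors had not filtered or normalized. Which annotation was counted, whether by strand, and how reads with several alignments were handled is not given in the sources used here. Library totals were 26154533 to 36423921 counts.

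Counts were tested with edgeR 4.0.16 (quasi-likelihood, TMM, filterByExpr with minimum count 10 and minimum total 15) in 1 model of 4 group means over 12 libraries, in R 4.3.3, with Benjamini-Hochberg adjustment over 15523 genes. Identifiers were matched to GENCODE without version (48144 matched, and 382 with 0.122% of counts did not). SE is the absolute log2 fold change divided by the square root of F, and intervals are 95%. Members were assigned to complexes and roles from general knowledge. The members and lists were chosen with earlier results of these data known. Named members are the mitochondrial genes, Sdha to Sdhd, Cyc1, called members, the 2 nuclear members of each complex with the largest change among those that passed in each pairwise comparison, and subunits with alternative forms, and of other lists up to 3 genes with the largest change that passed. Uqcrfs1 and Cox7c were named for their levels after their values were seen. Alternatives were RLE and upper-quartile scaling, scaling on nuclear protein-coding genes, no filter, mean CPM of at least 1, DESeq2 1.42.0, a replicate block with and without length and GC offsets, compared groups only, protein-coding genes only, and leaving out each library. Added after seeing the data were library totals as scale, offsets without the block, principal transcript lengths and mitochondrial genes with little shared sequence. Each sample carries a batch label equal to its replicate number, so libraries are paired by label, and over 18 same-numbered pairs the correlation of deviations was -0.0631 to 0.0373. Labels do not say whether libraries came from separate animals, so p-values may measure technical spread.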

Additional observations from a re-analysis of the deposited data

Results flagged for a closer look

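The LPS response differed between the genotypes for the members below, by the interaction term of edgeR over all genes tested. They are drawn from the members named by the rules above and are not all that passed. In all, 64 of 88 nuclear members passed as negative, and of 11 mitochondrial genes 4 passed as positive and 1 as negative. Values are the log2 response of KO minus that of WT cells, and a negative value means a lower response in KO cells. In complex I the values were Ndufa3 (-0.95), Ndufa6 (-0.82), Ndufaf2 (-1.08), Ndufaf8 (-1.03), Ndufb2 (-0.75), Ndufs4 (-0.63), Ndufs6 (-0.73), Ndufs8 (-0.77). In complex II the value was Sdhb (-0.37). In complex III the values were Uqcr10 (-0.92), Uqcr11 (-0.82), Uqcrb (-0.74), Uqcrh (-0.78), Uqcrq (-0.77). In complex IV the values were Cox4i1 (-0.66), Cox5b (-1.08), Cox6a1 (-0.90), Cox6b1 (-0.99), Cox7a1 (-1.39), Cox7a2 (-0.87), Cox7a2l (-0.40), Cox8a (-0.97), Ndufa4 (-0.76). In complex V the values were Atp5e (-0.95), Atp5g1 (-0.66), Atp5g2 (-0.73), Atp5g3 (-0.35), Atp5k (-1.11). Among mitochondrial genes the negative value was mt-Co3 (-0.44) and the positive values were mt-Cytb (0.55), mt-Nd2 (0.79), mt-Nd4 (0.67), mt-Nd5 (0.63). With a replicate block mt-Nd4 and mt-Nd5 no longer passed. No explanation was tested.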

How the results depend on the processing

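Listed first are counts over all members that moved by over 1.5 times, medians that moved by more than the spread between replicates and named genes that changed sign. With a replicate block and length and GC offsets, or the offsets alone, KO against WT after LPS gave higher members 17 and the mitochondrial median 0.51. KO against WT without LPS gave the nuclear median 0.37 and Sdhd -0.02. LPS in WT gave higher members 32 (31 without the block), lower members 29 (30 without the block), the nuclear median 0.06, the mitochondrial median -0.59, Ndufa4 -0.21, Uqcr10 -0.04, mt-Co1 -0.45, mt-Co2 -0.30, mt-Co3 -0.14 and mt-Nd3 -0.14 (-0.15 without the block). LPS in KO gave the mitochondrial median -0.49 (-0.48 without the block), Cox6a1 0.17, mt-Co1 -0.14 and mt-Co3 -0.26. The interaction gave higher members 7, the nuclear median -0.38 (-0.39 without the block) and the mitochondrial median 0.38 (0.39 without the block). Without a filter, KO against WT after LPS gave higher members 14 and lower members 8. KO against WT without LPS gave lower members 3. With only the compared groups in the fit, KO against WT after LPS gave higher members 4 and lower members 0. KO against WT without LPS gave lower members 3. With a replicate block, KO against WT after LPS gave lower members 0. KO against WT without LPS gave lower members 0. The interaction gave higher members 2. With library totals as scale (added after seeing the data), KO against WT without LPS gave lower members 3, the nuclear median 0.43 and the mitochondrial median -0.05. LPS in WT gave higher members 4, lower members 68, the nuclear median -0.36, the mitochondrial median -0.48, Atp5a1 -0.23, Atp5b -0.09, Atp5e -0.15, Atp5g1 -0.38, Atp5g3 -0.23, Atp5k -0.01, Cox4i1 -0.29, Cox6a1 -0.04, Cox8a -0.05, Cyc1 -0.30, Ndufa3 -0.14, Ndufa4 -0.28, Ndufaf8 -0.10, Ndufs6 -0.29, Uqcr10 -0.28, Uqcrc2 -0.32, mt-Co1 -0.48, mt-Co2 -0.15, mt-Co3 -0.01 and mt-Nd3 -0.01. LPS in KO gave higher members 0, lower members 92, the nuclear median -0.78, the mitochondrial median -0.50, Atp5a1 -0.13, Cyc1 -0.25, Uqcrc2 -0.12, mt-Co1 -0.18 and mt-Co3 -0.29. The interaction gave higher members 8, the nuclear median -0.50 and the mitochondrial median 0.29. With upper-quartile scaling, LPS in WT gave higher members 36, lower members 23, the nuclear median 0.13 and the mitochondrial median 0.00. LPS in KO gave higher members 6, the nuclear median -0.46 and the mitochondrial median -0.18. With medians in place of means, KO against WT without LPS gave the nuclear minus mitochondrial level 0.09. LPS in WT gave the nuclear minus mitochondrial level 0.00. The interaction gave the nuclear minus mitochondrial level -0.37. With the mitochondrial genes sharing under 50% of windows (added after seeing the data), KO against WT without LPS gave the nuclear minus mitochondrial level 0.52. LPS in WT gave the nuclear minus mitochondrial level 0.48. The interaction gave the nuclear minus mitochondrial level -0.82. Leaving out each library in turn, KO against WT after LPS gave higher members 4 to 11, lower members 0 to 37, the nuclear median -0.19 to 0.06 and the mitochondrial median 0.20 to 0.45. KO against WT without LPS gave lower members 0 to 3. LPS in KO gave the mitochondrial median -0.08 to 0.11. The interaction gave higher members 2 to 7, the nuclear median -0.79 to -0.54 and the mitochondrial median 0.09 to 0.25. The mitochondrial median without LPS ranged from 0.03 (without KO UT replicate 3) to 0.17 (without KO UT replicate 1), and for LPS in WT from 0.10 (without WT UT replicate 2) to 0.21 (without WT LPS replicate 2). The highest count of lower members after LPS came without WT LPS replicate 1. The replicate block also took Cox5b, Ndufb2, Ndufs6, Sdhd and Uqcrc2 (after LPS), Cox6a2 (LPS in WT), mt-Nd2 (without LPS), mt-Nd4 and mt-Nd5 (interaction) below the threshold, and changed no other named call. DESeq2 and RLE scaling moved no count over all members by over 1.5 times, but took 9 and 6 named results below the threshold and the mitochondrial median to 0.03 without LPS and 0.22 in the interaction. Offsets alone took 14 named results below it, library totals 17, upper-quartile scaling 10 and compared groups only 10, and offsets gave a nuclear median of 0.01 after LPS and a mitochondrial median of 0.01 without LPS. The causes were not tested. Counting depth limits the members under 1 CPM, and 3 libraries a group limit every p.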
